A study of Bos taurus with 111 samples.

Results

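The transcripts described here are those of 5 genes for proteins of blood plasma, measured in RNA from cattle muscle: AHSG (ENSBTAG00000000522), FGB (ENSBTAG00000022120), FGG (ENSBTAG00000006745), HPX (ENSBTAG00000003564) and PLG (ENSBTAG00000001271). They were chosen by name as secreted products of the liver, with earlier results of these data known, and form 5 of the 24616 genes in the count tables. The libraries came from biopsies of M. longissimus, a back muscle, of 83 steers of 2 breeds, Charolais (CH) and Holstein-Friesian (HF). Steers were sampled in 3 successive feeding phases, namely a high concentrate diet while growing (H1), zero-grazed grass (ZG) and a second high concentrate diet while finishing (H2). In each breed and phase the steers with the lowest and the highest residual feed intake were sampled, and these are written L-RFI and H-RFI. RFI is the feed eaten beyond that predicted from body size and growth, so a low value is an efficient animal. The labels give a mean age at the start of 283 days (SD 18.3) for CH and 306 days (SD 7.7) for HF, and each phase lasted 70 days. Steers were older in each later phase, so age cannot be told apart from diet between ZG and either other phase, nor from growing against finishing between H1 and H2. The 12 groups held 8 to 11 libraries, and 25 of the steers gave more than 1 library.

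Plasma proteins of this class are made by hepatocytes and released into the circulation, and skeletal muscle is not known as a source of them. AHSG, or fetuin-A, binds calcium phosphate, and its level in blood falls in the acute phase response. FGB and FGG encode the beta and gamma chains of fibrinogen, the precursor of fibrin in a clot. HPX encodes hemopexin, which binds free heme, and PLG encodes plasminogen, the zymogen of the fibrin-cleaving enzyme plasmin. FGB and FGG are neighbours in the RefSeq annotation of the ARS-UCD2.0 assembly, with the fibrinogen alpha gene FGA as the single protein-coding gene between them. Values are given as counts per 1000000 gene counts (CPM), so they can be compared between libraries for 1 gene. They were not divided by transcript length, so the order of the genes within a library was not read.

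Some libraries stood apart and are described first. Gene counts per library ranged from 4019 to 52552057, with a median of 15358277. Under 1000000 counts were 6 libraries, those of steer 357 (CH-ZG L-RFI, 4019 counts), steer 5632 (HF-H2 H-RFI, 6062), steer 1909 (HF-ZG L-RFI, 30681), steer 2251 (HF-H1 L-RFI, 102714), steer 954 (CH-H2 L-RFI, 146321) and steer 871 (CH-H2 H-RFI, 592192). The CH-ZG H-RFI library of steer 571 was of ordinary depth, with 13818659 counts, but its markers went against its label as muscle. The summed level of 8 muscle genes in it was 1.16 CPM, against 221 to 5579.7 CPM in the 104 libraries outside these exceptions and 293 to 1155 CPM in the 6 shallow ones. MYH6, a myosin heavy chain, was at 0.507 CPM there and at 83.9 CPM or more in each of the 104. CSRP3, a protein of the muscle Z-disc, was at 0.145 CPM against at least 13.8 CPM. MYH8 and ACTC1 had no count in this library, against at least 1.07 and 1.97 CPM in the 104. METTL21C had no count either, but its lowest value among the 104 was also 0. The muscle genes MYH4 and CHRND, at 0.072 and 0.217 CPM, were not below the lowest of the 104, 0 and 0.182 CPM. ALB, the gene of serum albumin, reached 101449 CPM in it, while its median over the 104 was 68.6 CPM. SDS, a gene of liver metabolism, was at 11.1 CPM in the same library. That lay within the values of the 104, which had a median of 4.18 and a highest of 90.2 CPM. These 7 libraries are called marked below, the group medians and the comparisons of breed, phase and RFI class are given with and without them, and none was removed from the main values.

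**Figure D1:**
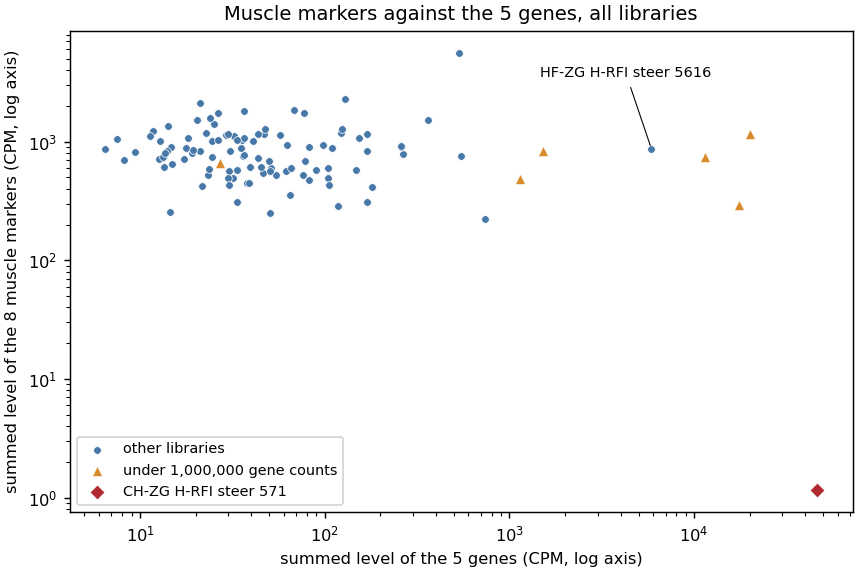
Summed level of 8 muscle markers (vertical axis, CPM, log scale) against the summed level of the 5 plasma protein transcripts (horizontal axis, CPM, log scale), 1 point for each library, with triangles for libraries under 1000000 counts and a diamond for steer 571. The diamond lies alone at 1.16 CPM of muscle markers and 46244.5 CPM of the transcripts, whereas steer 5616 has 5871 CPM of the transcripts with 869 CPM of muscle markers.

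All 5 transcripts were present in every library, and none was at 0 in any of them, marked or not. AHSG had a median of 3.84 CPM over the 104 unmarked libraries, with a lowest value of 0.801 and a highest of 248 CPM. FGB had a median of 14.7 CPM, from 2.07 to 2706 CPM, and FGG a median of 9.38 CPM, from 1.34 to 1903 CPM. HPX ran from 0.803 to 585 CPM with a median of 5.98 CPM, and PLG from 0.702 to 429.8 CPM with a median of 3.57 CPM. Summed over the genes, the level ran from 6.48 to 5871 CPM with a median of 36.6 CPM, a range of 906-fold among libraries whose muscle markers were in place. Behind the sums stood 97 to 125989 counts per library, with a median of 577.5, so each summed level was well above the level that a count of 0 allows. Between 99.5% (PLG) and 99.8% (HPX) of the reads of each gene lay on the strand counted, where the median library had 99.0% over all genes. In bulk RNA of this kind, fewer cells of a type and less RNA per cell cannot be told apart.

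The upper end of the range belonged to few libraries. Over 100 CPM in sum were 28 libraries, 22 of them unmarked. Over 500 CPM were 10 libraries, 4 of them unmarked, and over 1000 CPM were 7, of which 1 was unmarked. The highest was the library of steer 571, where the 5 genes took 4.62% of all gene counts (46244.5 CPM, 95% Wilson interval 46134 to 46355). In it AHSG was at 2168, FGB at 20913, FGG at 14482.5, HPX at 4926 and PLG at 3755 CPM. The highest unmarked library, HF-ZG H-RFI of steer 5616, had 5871 CPM (5839 to 5904), or 0.587% of its 21458090 counts. Its muscle genes were at ordinary levels, with MYH6 at 371, CSRP3 at 152 and MYL6B, a myosin light chain, at 256 CPM. Next among unmarked libraries came HF-H2 H-RFI of steer 5588 with 739.7 CPM, HF-H1 H-RFI of steer 2069 with 543 CPM and HF-ZG H-RFI of steer 2272 with 534 CPM. All of these are HF libraries, and the highest unmarked CH library (CH-H2 H-RFI, steer 1484) had 179.9 CPM.

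Of the 6 libraries under 1000000 counts, 5 had high shares, and the counts behind them were small. The intervals given for single libraries cover counting error only. Steer 5632 had 121 counts of the 5 genes (19960.4 CPM, 95% Wilson interval 16732 to 23797) and steer 1909 had 535 counts (17437.5 CPM, 16032 to 18964). Steer 357 had 46 counts (11446 CPM, 8592 to 15232), steer 2251 had 157 (1529 CPM, 1308 to 1787) and steer 954 had 166 (1134 CPM, 975 to 1321). The exception was steer 871, the deepest of the 6, with 16 counts and 27.0 CPM (16.6 to 43.9), a value within the range of the unmarked libraries. The absolute counts of the shallow libraries, 16 to 535, lay below the median count of the unmarked libraries. Depth and the summed level were also correlated within the 6 sets of breed and phase. With all libraries Pearson's r lay between -0.810 and -0.139, and 5 of 6 had an adjusted p under 0.1 by r and 0 of 6 by Spearman's rho (permutation tests). Without the 2 libraries farthest in depth r was -0.213 to -0.0737 in CH-ZG, HF-H1, HF-ZG and HF-H2, where the relation thus rested on those libraries, and -0.390 in CH-H2. In CH-H1, which holds no marked library, it went the other way, from -0.139 to -0.492. Without the marked libraries r lay between -0.390 and -0.139 with a smallest adjusted p of 0.581 (permutation tests). In CH-H2 rho was then -0.635 (adjusted p = 0.104, permutation test) and r without the 2 farthest libraries was -0.768.

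**Figure D2:**
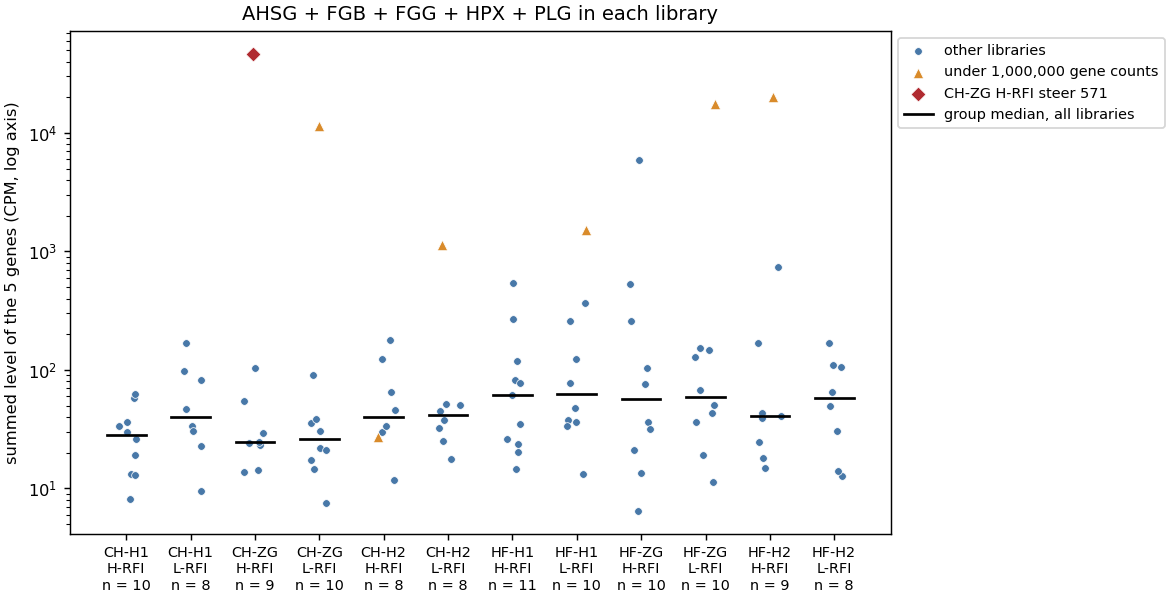
Summed level of AHSG, FGB, FGG, HPX and PLG (vertical axis, CPM, log scale) in every library of the 12 groups of breed, phase and RFI class, with a black bar at the median of each group, triangles for libraries under 1000000 counts and a diamond for steer 571. The groups overlap, and the highest values are those of steers 571, 5632, 1909 and 357, all marked.

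By group, the summed level had a median between 24.5 CPM (CH-ZG H-RFI) and 62.7 CPM (HF-H1 L-RFI). In CH-H1 it was 28.1 CPM in H-RFI (8.20 to 62.8) and 40.2 CPM in L-RFI (9.44 to 169.0). In CH-ZG the medians were 24.5 CPM for H-RFI and 26.0 CPM for L-RFI, and in CH-H2 they were 39.8 and 41.5 CPM. The HF groups had medians of 61.5 (H-RFI, 14.7 to 543) and 62.7 CPM (L-RFI) in H1, 56.4 and 59.0 CPM in ZG, and 41.0 and 57.4 CPM in H2. From lowest to highest the order was CH-ZG H-RFI, CH-ZG L-RFI, CH-H1 H-RFI, CH-H2 H-RFI, CH-H1 L-RFI, HF-H2 H-RFI, CH-H2 L-RFI, HF-ZG H-RFI, HF-H2 L-RFI, HF-ZG L-RFI, HF-H1 H-RFI and HF-H1 L-RFI. The ranges of all 66 pairs of groups overlapped, also without the marked libraries. The largest step between neighbours in this order was 0.50 on the log2 scale, while the SD of log2 CPM within a group was 0.96 to 3.67. Steps between neighbours were thus smaller than the spread of single libraries. Sorting the groups by median makes such steps small in itself, so they do not test a difference between groups. With the marked libraries left out, the lowest median was 21.7 CPM in CH-ZG L-RFI and the highest 61.5 CPM in HF-H1 H-RFI, and the largest step between neighbours was 0.44.

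The single genes kept to similar medians. AHSG was lowest in CH-H1 H-RFI, with a median of 2.80 CPM (0.911 to 7.86), and highest in HF-H1 L-RFI, with 7.17 CPM (1.64 to 156). FGB had its lowest median in CH-ZG L-RFI, 10.2 CPM, and its highest in HF-H1 L-RFI, 25.3 CPM. FGG ran from 6.32 CPM in CH-ZG L-RFI to 17.7 CPM in HF-H2 L-RFI. For HPX the extremes were CH-ZG H-RFI with 3.65 CPM and HF-ZG L-RFI with 9.62 CPM, and for PLG they were CH-H1 H-RFI with 2.23 CPM and HF-H1 H-RFI with 6.66 CPM. Leaving out the marked libraries moved the highest median to HF-ZG H-RFI for AHSG (5.80 CPM) and to HF-H2 L-RFI for FGB (23.0 CPM), while the other extremes stayed in the same groups. In either case each gene had its lowest group median in CH and its highest in HF, 2.48 to 2.98 times apart with all libraries and 2.07 to 3.30 times without the marked ones, and the ranges of all 66 pairs of groups overlapped for each gene.

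The ratios between the genes varied far less than their levels. FGB to FGG had a median ratio of 1.57 in the 110 libraries with at least 10 counts of both, with extremes of 0.955 and 2.31. The SD of its log2 ratio was 0.20, where counting error alone gives 0.19, although the log2 level of FGB had an SD of 2.37 over the same libraries. The ratio of these neighbouring fibrinogen genes was thus spread hardly more than the number of reads allows. HPX to PLG came next, with a median of 1.56 and an SD of the log2 ratio of 0.35 (counting alone 0.29, n = 106). FGB to PLG, a clot protein against the zymogen of the enzyme that dissolves the clot, had an SD of 0.39 (counting 0.25), and FGG to PLG one of 0.44. The 3 widest ratios all held AHSG. AHSG to FGB ran from 0.0475 to 0.709 with a median of 0.257 and an SD of 0.60 (counting 0.24, n = 108), and AHSG to FGG had an SD of 0.65. The third of them, AHSG to PLG, had an SD of 0.51, close to the 0.50 of FGG to HPX, the 0.49 of AHSG to HPX and the 0.45 of FGB to HPX. Set against ALB, which is not one of the 5, the SD was 0.36 for FGB, 0.38 for FGG, 0.40 for PLG, 0.46 for HPX and 0.51 for AHSG.

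Libraries that stood apart in level were nearer to the rest in these ratios, although several ratios of steers 571 and 5616 lay toward an edge. FGB to FGG was 1.44 in the library of steer 571 and 1.42 in that of steer 5616, where the median of the others was 1.57. HPX to PLG was 1.31 and 1.36 in the same libraries, against 1.56. AHSG to FGB was 0.104 for steer 571 and 0.0917 for steer 5616, against a median of 0.259, and 4 and 1 of the 102 other unmarked libraries were lower. AHSG to FGG was 0.150 and 0.130, against 0.399, and 2 and 1 of 102 were lower. FGG to HPX was 2.94 and 3.25, against 1.68, and for either steer 95 of 103 were lower. The 4 shallow libraries with enough counts had AHSG to FGB ratios of 0.142 to 0.333. No ratio differed between groups in the tests made: of 90 comparisons of log2 ratios by RFI class within breed and phase and by breed within phase, 0 passed an adjusted p under 0.1 (exact or 100000-resample permutation tests). Unadjusted, 2 were under 0.05, both for HPX to PLG, which was 0.28 higher on the log2 scale in L-RFI than H-RFI in HF-H1 (p = 0.0248) and 0.39 higher in CH-H2 (p = 0.032). Both sets hold a marked library, and without these the differences were 0.25 (exact permutation p = 0.0464) and 0.31 (exact permutation p = 0.0641). The smallest adjusted p of the 90 was 0.924.

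**Figure D3:**
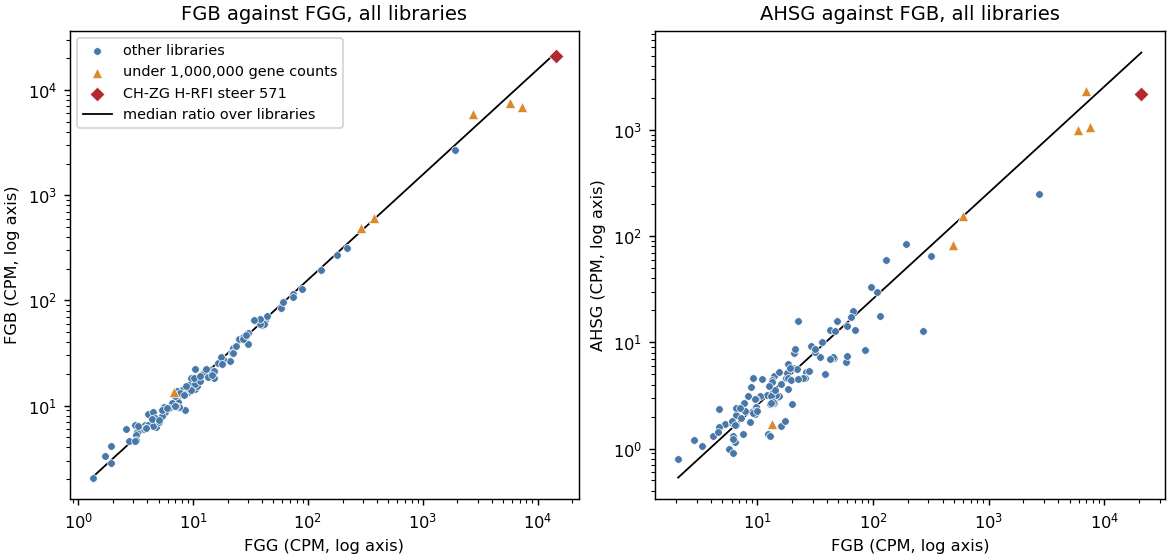
FGB against FGG (left) and AHSG against FGB (right), in CPM on log scales, 1 point for each library, with triangles for libraries under 1000000 counts, a diamond for steer 571 and a line at the median ratio. FGB and FGG keep close to the line over the whole range (SD of the log2 ratio 0.20), and AHSG against FGB is broader (0.60) with steers 571 and 5616 under the line.

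The 5 transcripts rose and fell together from library to library. Within the 6 sets of breed and phase, the 10 pairs of genes gave 60 correlations of log2 CPM, over 16 to 21 libraries each. Pearson's r lay between 0.923 and 0.999 with a median of 0.980, and Spearman's rho between 0.859 and 0.991. Without the marked libraries r was 0.819 to 0.998. Leaving out the 2 libraries farthest from the median of each set gave r down to 0.805, with a median of 0.937. All 60 had an adjusted p under 0.1 by either coefficient, and the largest adjusted p for r was 1e-05, the smallest that the 100000 permutations can give.

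All 10286 genes that passed the filter were also ranked by likeness to the mean log2 level of the 5 across the 104 unmarked libraries. The ranking was by Spearman's rho and without a p. The highest were ENSBTAG00000007273 (0.984) and ENSBTAG00000001638 (0.983), for which the sources used here gave no symbol. ALB stood at rank 4 with 0.975. Among other genes of a list of liver products, CP (ceruloplasmin, a copper carrier) stood at rank 12 with 0.962, VTN (vitronectin, an adhesive glycoprotein) at rank 17 with 0.958, C5 (a complement component) at rank 28 with 0.950 and ORM1 (an acid glycoprotein) at rank 40 with 0.937. SDS, a serine-degrading enzyme of liver metabolism, had rho 0.088. In all, 52 genes were above 0.9, 64 above 0.8 and 88 above 0.5, while the median gene was at 0.047. All points share the same libraries, and breed and phase are mixed in them. Marker genes of other tissues had lower rho. The 8 muscle genes had rho between -0.21 and 0.060, the blood cell genes LYZ, CSF3R, PTPRC and CD3E between -0.019 and 0.12, and the endothelial and connective tissue genes SOX18, APOLD1 and CD248 between -0.066 and 0.068. The adipocyte genes FABP4, CIDEC, TRARG1 and THRSP were higher, at 0.23 to 0.29, which put them at ranks 137 to 181 of the 10286 genes. HBD, a globin of red cells, had no count in 108 libraries. No other globin was on the list, so the content of red cells was not assessed.

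Breeds were compared within each phase with edgeR's quasi-likelihood test over all genes, where a call needs a Benjamini-Hochberg adjusted p under 0.1 and a fold change above 1.5. A gene with an unadjusted p under 0.05 is called nominal. The 3 breed comparisons use the same libraries as the RFI and phase comparisons below, so the results are not independent of each other. In H1 the log2 fold changes of HF over CH were above 0 for all 5 transcripts, and 1 passed the test. The summed level had a median of 61.5 CPM in 21 HF libraries (13.2 to 1529) and 32.0 CPM in 18 CH libraries (8.20 to 169.0), with wide overlap. AHSG was called, at a log2 fold change of 1.75 (SE 0.50, adjusted p = 0.0855). The other 4 were not, although their log2 fold changes of 1.41 (HPX), 1.43 (FGG), 1.48 (FGB) and 1.52 (PLG) were close to it, with adjusted p from 0.103 (PLG) to 0.178 (HPX). That is 1 of 5 called, where 1.08% of the 10628 genes tested were called, and 5 of 5 were nominal, where 11.2% of all genes were. DESeq2 called 5 of 5, where it called 2.25% of all genes. Where a count by DESeq2 is given below without its share of all genes, it was not read as a result about these genes. Without steer 2251, the marked library in this comparison, AHSG remained called at 1.65 (adjusted p = 0.0948), as 1 of 5 where 1.03% of all genes were, with the other genes at 1.23 to 1.42.

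Genes of other lists moved in the same comparison. Of the liver list, 3 of the 6 tested were higher in HF, namely ALB at 1.78 (adjusted p = 0.0935), ORM1 at 1.69 and VTN at 1.64. Without the marked library ORM1 alone of these was called, at 1.62 (adjusted p = 0.0935), while ALB stood at 1.36 (adjusted p = 0.171) and VTN at 1.51 (adjusted p = 0.113). Of 5 blood cell genes tested, 2 were higher in HF, S100A12 (a neutrophil calcium binder) at 1.36 and PTPRC (CD45, of leukocytes) at 0.96. The summed level of the 7 blood genes had a median of 15.7 CPM in HF-H1 (0 to 51.4) and 7.88 CPM in CH-H1 (1.94 to 26.2). The adipocyte gene THRSP was higher at 1.90, as 1 of 4 tested. Of 8 muscle genes 2 were called, MYH4 (a fast myosin heavy chain) lower in HF at -3.18 (adjusted p = 0.00545) and METTL21C (a lysine methyltransferase) higher at 0.66 (adjusted p = 0.0809). The blood, adipocyte and muscle counts were the same without the marked library. Their part in the breed difference of the plasma protein transcripts was not tested.

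In ZG the breed comparison turned on single libraries. With all libraries, log2 fold changes of HF over CH were -0.91 to -0.22 and 0 of 5 were called, where 0.00986% of 10139 genes were. Nominal were 0 of 5, where 6.51% of all genes were, and the direction was not the same by DESeq2, which gave 0.56 to 1.98 and called 1 of 5, HPX, higher in HF, where it called 1.15% of all genes. Without the marked libraries they were 1.80 (AHSG), 2.06 (HPX), 2.10 (PLG), 2.42 (FGB) and 2.46 (FGG), with adjusted p of 0.131 to 0.141, so 0 of 5 were called where 0.509% of all genes were. All 5 were nominal, where 13.8% of all genes were, and the values rest on few libraries as follows. Leaving out steer 571 alone moved the median from -0.55 to 2.96. Without steer 5616 as well as the marked libraries, the median was 1.02. The medians of the summed level did not turn, at 59.0 CPM in HF-ZG and 24.5 CPM in CH-ZG with all libraries. Without the marked ones they were 50.3 CPM in 19 HF-ZG libraries (6.48 to 5871) and 24.1 CPM in 17 CH-ZG libraries (7.48 to 104). In H2 the log2 fold changes were 0.55 to 1.10, above 0 in 5 of 5 genes, and 0 of 5 were called (0.0102% of 9822 genes), 0 of 5 were nominal (5.05% of all genes) and DESeq2 called 0 of 5. They were 0.73 to 1.04 without the marked libraries, with adjusted p of 0.785 or more. Over the 3 phases without marked libraries, the sum had a median of 30.6 CPM in CH (7.48 to 179.9) and 47.4 CPM in HF (6.48 to 5871).

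**Figure D4:**
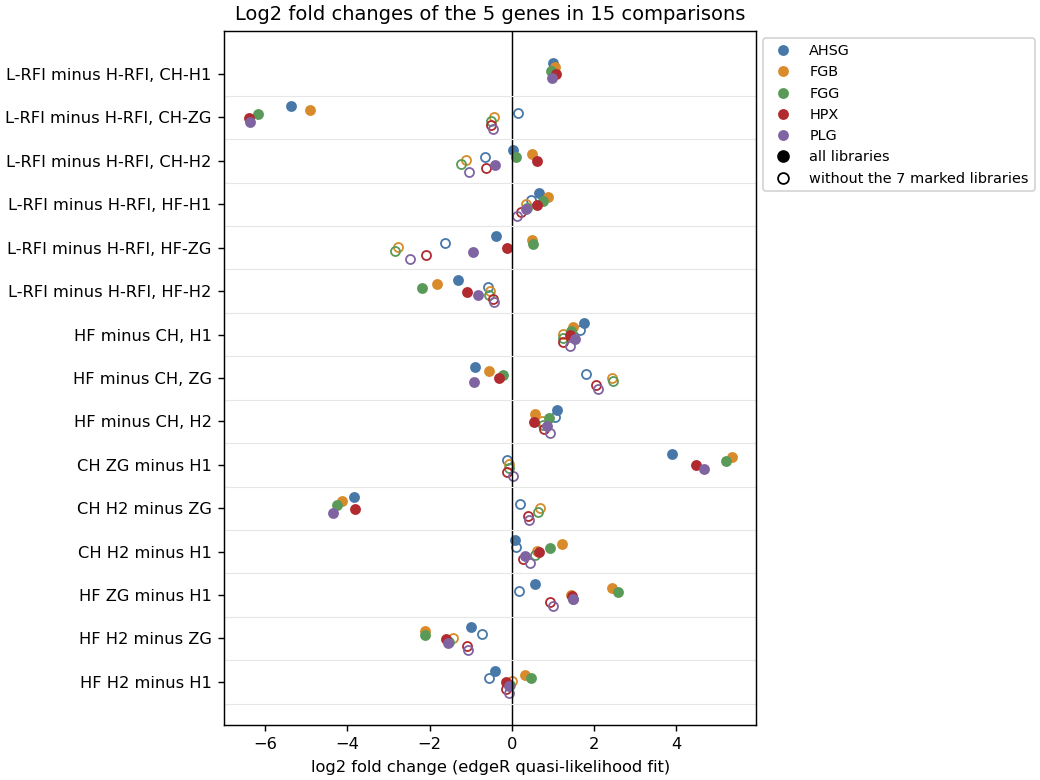
Log2 fold changes from edgeR (horizontal axis) for the 5 transcripts in 15 comparisons of RFI class, breed and phase, with filled points for all libraries and open points without the 7 marked libraries. HF over CH in H1 lies between 1.23 and 1.75 in both fits, whereas CH ZG over H1 moves from 3.90 to 5.34 with all libraries to -0.12 to 0.021 without the marked ones.

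Diet phases were compared within each breed, and the 3 phase contrasts of a breed share libraries. In CH, ZG was above H1 in all 5 transcripts with all libraries. Log2 fold changes were 3.90 for AHSG (SE 1.02, adjusted p = 0.0218), 5.34 for FGB (SE 1.21, adjusted p = 0.0146), 5.20 for FGG (SE 1.27, adjusted p = 0.0177), 4.46 for HPX (SE 1.21, adjusted p = 0.0275) and 4.68 for PLG (SE 1.17, adjusted p = 0.018). All 5 were called, where 3.77% of 10054 genes were, and 17.1% of all genes were nominal. These calls rested on steer 571, since without that library alone 0 of 5 were called (2.29% of all genes) and the log2 fold changes were -0.083 to 0.30. Without all marked libraries they were -0.12 to 0.021, with 0 of 5 called (3.82% of all genes). Group medians did not follow the fitted change, as the summed level was 32.0 CPM in CH-H1 and 24.5 CPM in CH-ZG with all libraries. H2 against ZG in CH was its mirror image. AHSG, FGB, FGG and PLG were called lower in H2 at log2 fold changes of -3.83, -4.13, -4.26 and -4.35, and HPX was at -3.81 (adjusted p = 0.109), so 4 of 5 were called where 2.42% of all genes were and 10.8% were nominal. Without steer 571 these became 0.36 to 0.93, and 0 of 5 were called (0.944% of all genes), as without all marked libraries (1.04%). Between H2 and H1 in CH the log2 fold changes were 0.068 to 1.21, 0 of 5 were called (0.448% of all genes), 0 of 5 were nominal (8.3% of all genes) and DESeq2 called 0 of 5. They were 0.098 to 0.61 without the marked libraries.

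In HF no transcript was called between phases. ZG over H1 gave log2 fold changes of 0.56 for AHSG, 1.46 for HPX, 1.48 for PLG, 2.44 for FGB and 2.57 for FGG. Called were 0 of 5, where 0.469% of 10444 genes were, 4 of 5 were nominal, where 7.97% of all genes were, and DESeq2 called 0 of 5 with values below 0, -0.98 to -0.043. By edgeR without the marked libraries it gave 0.18 to 1.48, and without steer 5616 as well -0.80 to -0.0033. H2 over ZG gave -2.12 to -0.98, with 0 of 5 called (3.33% of all genes), 4 of 5 nominal (18.7%) and 0 of 5 called by DESeq2, whose median was 0.79. It gave -1.52 to -0.74 without the marked libraries, and 0.072 to 0.32 without steer 5616 as well. H2 over H1 gave -0.42 to 0.46 with 0 of 5 called (9.76% of all genes), 0 of 5 nominal (29.3%) and 0 of 5 called by DESeq2, and -0.55 to -0.0073 without the marked libraries. Over both breeds and without marked libraries, the summed level had medians of 36.4 CPM in H1, 33.7 CPM in ZG and 42.3 CPM in H2.

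RFI classes were compared within breed and phase, with log2 fold changes written as L-RFI over H-RFI. In CH-H1, where no library was marked, the log2 fold changes of all 5 transcripts were above 0 and of similar size, and none passed the test. The summed level was 8.20, 12.9, 13.3, 19.1, 26.3, 29.8, 33.4, 36.3, 57.3 and 62.8 CPM in the 10 H-RFI libraries. In the 8 L-RFI libraries it was 9.44, 22.8, 30.6, 33.3, 47.0, 82.0, 98.4 and 169.0 CPM. The 3 highest values of the comparison were thus L-RFI libraries, and the classes overlapped over the rest. Log2 fold changes were 0.94 to 1.07 (SE 0.47 to 0.54) with a median of 1.00, where the median of all genes was -0.036, and 0 of 5 were called (0% of 10596 genes, adjusted p = 0.999). Nominal was 1 of 5, AHSG (edgeR, p = 0.0429), where 2.04% of all genes were, and DESeq2 called 0 of 5. All 5 were above 0, as were 40.5% of all genes. Leaving out 1 library at a time moved the median between 0.62 and 1.24 and called 0 of 5 each time. The genes stand on a list that was drawn from these same samples for this contrast, so their direction here is not independent evidence. FGB and FGG also stand on such a list for CH-H2. Median depth was 26941923 counts in the H-RFI and 13500619 in the L-RFI libraries of CH-H1, and with log2 depth as a covariate, an alternative added after the data were seen, the median log2 fold change was 1.02.

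The other RFI comparisons called no transcript. In CH-ZG the log2 fold changes were -6.40 to -4.91 with all libraries, 0 of 5 were called (0% of 9804 genes) and 5 of 5 were nominal (6.02% of all genes), while DESeq2 gave a median of 0.53 and called 0 of 5, and edgeR's exact test called 1 of 5 (1.24% of all genes). Without the marked libraries, steers 571 and 357, they were -0.52 to 0.15. In CH-H2 they were -0.42 to 0.61, with 0 of 5 called (0% of 9997 genes), 0 of 5 nominal (0.71%) and 0 of 5 called by DESeq2. Without steers 871 and 954 they were -1.24 to -0.63, and 2 of 5 were nominal (0.884% of all genes). With depth as a covariate the median moved from 0.10 to -0.82. HF-H1 gave 0.35 to 0.87 (0% of 10698 genes called), with 0 of 5 nominal (2.56%) and 0 of 5 called by DESeq2, and 0.13 to 0.46 without steer 2251. HF-ZG gave -0.95 to 0.51 (0% of 10594 genes called), with 0 of 5 nominal (10.6%) and 0 of 5 called by DESeq2. Without steer 1909 it gave -2.84 to -1.63 with 4 of 5 nominal (11.6% of all genes), and without steer 5616 also it gave -0.33 to 0.17. With depth as a covariate the median of all libraries moved from -0.11 to -2.64. The size of the RFI difference in HF-ZG therefore depended on these libraries. HF-H2 gave -2.18 to -0.82 (0% of 9731 genes called), with 0 of 5 nominal (0.771%) and 0 of 5 called by DESeq2, and -0.58 to -0.44 without steer 5632.

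A fit over all 12 groups tested whether the RFI difference was unequal across the 6 sets of breed and phase. This fit, and that of a common RFI difference below, took several libraries of some steers. Their p-values do not account for the shared animal. With all libraries 5 of 5 were called, with adjusted p of 0.0367 (AHSG), 0.0762 (FGB), 0.0266 (FGG), 0.0114 (HPX) and 0.0156 (PLG), where 2.48% of 10222 genes were called and 5.51% were nominal. Without steer 571 alone 0 of 5 were called (0% of all genes), and the same held without all marked libraries, with 3 of 5 nominal where 1.42% of all genes were. The RFI difference common to the 6 sets was -0.72 to -0.24 on the log2 scale, 0 of 5 were called (0% of 10222 genes), 0 of 5 were nominal (12.3% of all genes) and DESeq2, with a median of 0.26, called 0 of 5. It was -0.56 to -0.18 without the marked libraries, without steer 571 alone -0.12 to 0.37, and without steer 5616 and the marked libraries -0.16 to 0.14.

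**Figure D5:**
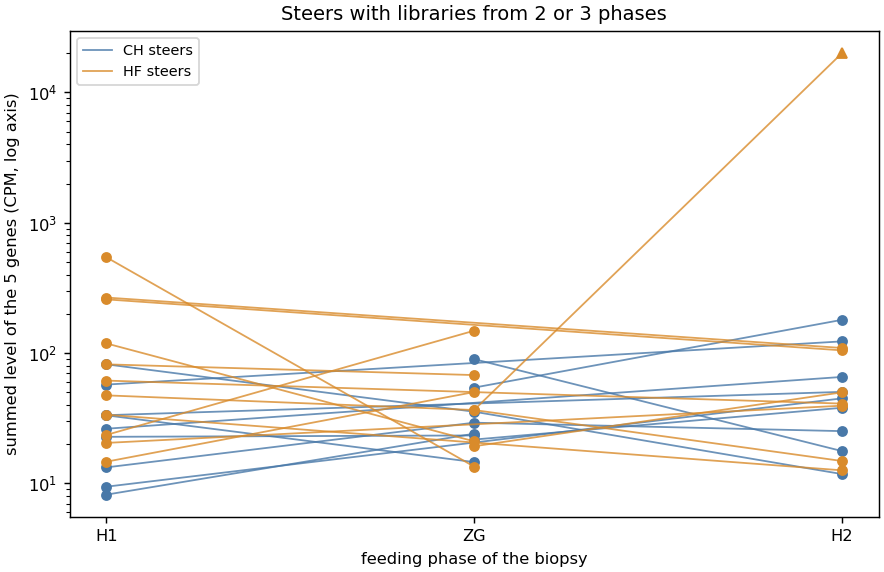
Summed level of the 5 transcripts (vertical axis, CPM, log scale) by feeding phase for the 25 steers with libraries of 2 or 3 phases, with lines joining the libraries of a steer, blue for CH and orange for HF, and a triangle for a library under 1000000 counts. Lines cross between phases, and the steepest among unmarked libraries is steer 2069, from 543 CPM in H1 to 13.5 CPM in ZG.

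The same steer could be sampled in several phases, and its level was not kept. In 25 steers with libraries of at least 2 phases, the highest was 1.02 to 40.4 times the lowest among steers without a marked library, and 546 times in steer 5632, whose H2 library is the shallow one. The median over the 25 was 2.497-fold, and 19 steers differed by over 2-fold. Steer 2069 showed the largest unmarked change, from 543 CPM in H1 to 13.5 CPM in ZG. Steer 5632 had 36.6 CPM in its ZG library and 19960.4 CPM in the shallow H2 library. Steer 1816 was almost level, at 22.8 CPM in H1 and 23.3 CPM in ZG. Between the first and the second library of a steer, Pearson's r of the log2 sum was 0.058 (permutation p = 0.784, adjusted 0.891 over 6 relations) and Spearman's rho 0.012 (p = 0.954), n = 25. Without the 2 steers farthest from the median r was 0.157. The median absolute difference between the pair was 1.28 on the log2 scale, an interval that also holds the change of phase.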

How the data were processed

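RNA-seq libraries of M. longissimus biopsies (83 steers) were analysed from the gene counts that the authors deposited, 1 table per library with 24616 Ensembl genes. Per the labels and the study's methods, reads were checked with FastQC 0.11.5, trimmed, and aligned with STAR 2.5.1. The methods name STAR for the counts per gene, while the labels also list HTSeq among the tools. The labels name the build UMD3.1 and the methods ARS-UCD1.2, so no coordinates are printed. Counts of the reverse strand were used, rows that name no gene were left out, and CPM is per 1000000 of the remaining counts. Gene symbols came from the study's supplement, and all 5 genes passed the filter of at least 1 CPM in 50% of the libraries of each comparison. No library held values identical to another.

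Groups followed the labels for breed, phase and RFI class. RFI (6), breed (3) and phase (6) comparisons, the RFI difference common to the sets and its inequality among them were tested in edgeR 4.0.16 (R 4.3.3; TMM, quasi-likelihood F test, Benjamini-Hochberg adjusted p under 0.1, fold change above 1.5), after tests on simulated data. Because the phase comparisons and the RFI fits over all 12 groups take several libraries of some steers, their p-values do not account for the shared animal. The exception is limma 3.58.1 (voom) with the steer as a block, run for the phase comparisons. Each breed comparison, and each RFI comparison within breed and phase, holds a steer once. Ratios used libraries with at least 10 counts of both genes, and correlations used log2(CPM + 0.5). They were tested by exact or 100000-resample 2-sided permutation (scipy 1.17.1) and adjusted within each family. Alternatives were DESeq2 1.42.0, RLE size factors, no filter, unstranded counts, edgeR's exact test, leaving out libraries, a pseudocount of 0.1 and at least 30 counts per ratio. DESeq2 was run at its default settings, which include a replacement of outlying counts, whereas the main edgeR fit kept all counts. The part of that replacement in the differences between the tools was not tested. Depth as a covariate and leaving out steers 571 or 5616 were added after the data were seen. The named genes were the 5 members, the genes of the lists fixed for liver, muscle, blood, adipocyte and endothelial or connective tissue, and the 10 genes most like the mean log2 level of the members. The members and lists were chosen with earlier results of these data known. ADIPOQ was not analysed here.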

Additional observations from a re-analysis of the deposited data

Results flagged for a closer look

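Single libraries far from the rest of their group were looked for gene by gene with Dixon's ratio of log2 levels at the 95% level in the 11 groups of 8 to 10 libraries. HF-H1 H-RFI, with 11, was not tested. Chance flags about 1 in 20 groups for a single gene. The genes rose and fell together in the same libraries, so their tests are not independent of each other. The number of tests past the limit can therefore not be set against that rate. Of 55 tests 21 were past the limit, and each of the 21 was the highest value of its group and came from a marked library. In CH-ZG H-RFI it was steer 571, with AHSG at 2167.94, FGB at 20913, FGG at 14482.5, HPX at 4926.09 and PLG at 3755 CPM. In CH-ZG L-RFI it was steer 357, with 995.3, 5971.6, 2737, 497.6 and 1244.1 CPM for the genes in the same order. In HF-ZG L-RFI it was steer 1909, with 1075.6, 7561.7, 5736.5, 1857.8 and 1206 CPM. In CH-H2 L-RFI it was steer 954, with 82.0, 492, 287, 198 and 75.2 CPM. In HF-H2 H-RFI the AHSG value of steer 5632, 2309.5 CPM, was past the limit. The library of steer 5616 was not past the limit for any gene.

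The RFI difference was unequal across the 6 sets of breed and phase for all 5 genes in the edgeR fit with all libraries, with adjusted p of 0.0367 for AHSG, 0.0762 for FGB, 0.0266 for FGG, 0.0114 for HPX and 0.0156 for PLG. Without the library of steer 571 none of the 5 was called.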

How the results depend on the processing

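The count of the 5 genes called was the same as in the main fit under 110 of 131 alternatives. These alternatives were not all separate fits. Steer 5616 gave a library in HF-ZG only. In comparisons without HF-ZG, leaving it out besides the marked libraries repeated the fit without the marked libraries, and both were tallied. The count was 2 without a filter on low counts and 1 by edgeR's exact test for RFI in CH-ZG (main 0). For breed in H1 (main 1) it was 5 by DESeq2, 2 with RLE size factors and 2 with unstranded counts. The shares of all genes called with RLE size factors and with unstranded counts are not given here. The counts of the 5 genes under them were therefore not read as a result about these genes. DESeq2 called 1 for breed in ZG (main 0), 1 for CH ZG over H1 (main 5) and 0 for CH H2 over ZG (main 4). Leaving out steer 571, alone or with the other libraries, called 0 for both of these CH contrasts and 0 for the unequal RFI difference (main 5). With limma voom the same CH contrasts had 0 called with the steer as a replicate block and 0 without the block. The consensus correlation within a steer was -0.042 in CH and 0.127 in HF, and steers were shared by only some libraries. The block changed no other call.

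The called changes of the 2 CH contrasts with ZG were not kept without steer 571. For ZG over H1 the values then lay near 0, and for H2 over ZG they took the other sign, uncalled. For CH ZG over H1 without the marked libraries, the median was -0.070 and the highest gene 0.021 (SE 0.34 to 0.43). AHSG was at -0.11, FGB at -0.069, FGG at -0.070 and HPX at -0.12. Without steer 571 alone the median stayed above 0, at 0.096 (genes from -0.083 to 0.30, SE 0.39 to 0.54), with AHSG at -0.061 and HPX at -0.083. For CH H2 over ZG the median was 0.42 without the marked libraries, 0.78 without steer 571 alone and 0.30 by DESeq2. The genes were then, without the marked libraries and without steer 571 alone, AHSG 0.21 and 0.36, FGB 0.68 and 0.92, FGG 0.63 and 0.93, HPX 0.39 and 0.78, and PLG 0.42 and 0.54. By DESeq2 AHSG was 0.53, HPX 0.30 and PLG 0.64, and HPX was 0.0067 with limma voom and the replicate block. The cause was not tested. Among changes that were not called, the median also took the other sign by DESeq2 for HF ZG over H1 (1.48 to -0.59), HF H2 over ZG (-1.60 to 0.79), breed in ZG (-0.55 to 1.60), RFI in CH-ZG (-6.16 to 0.53), RFI in CH-H2 (0.10 to -0.24), HF H2 over H1 (-0.069 to 0.031) and the common RFI difference (-0.42 to 0.26).

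Leaving out 1 library at a time in CH-H1 (18 fits), where each RFI class had 8 or 10, gave 0 to 0 genes called, with log2 fold changes of 0.62 to 1.28 for AHSG, 0.74 to 1.28 for FGB, 0.62 to 1.21 for FGG, 0.65 to 1.31 for HPX and 0.58 to 1.24 for PLG. Among all genes, the number called for CH ZG over H1 was 379 in the main fit, 163 by DESeq2, 231 without steer 571, 23 by voom and 1261 without a filter, and for CH H2 over ZG it was 243, 93, 95, 40 and 945. For breed in H1 it was 115, 239 by DESeq2 and 190 without a filter. For RFI in CH-ZG it was 0, 122 by the exact test and 504 without a filter. For the unequal RFI difference it was 253, 152 by DESeq2, 517 with RLE, 818 without a filter and 0 without steer 571. The ratio spreads and correlations kept to the same values or calls under the alternatives run. Counts of the genes in shallow libraries (16 to 535 in sum) limit what a single such library can show.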

Other observations

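Genes of the liver list other than the 5 were not in the same proportion in every library. SERPINA3, a serine protease inhibitor, stood at 2388 CPM in the library of steer 571 and at 8.20 CPM in that of steer 5616. Its count per ALB count was 0.0235 in the first and 0.000956 in the second, where 43 other unmarked libraries with enough counts had a median of 0.00956 and none was below steer 5616. VTN per ALB was 0.0356 for steer 571 and 0.0532 for steer 5616, against a median of 0.0744, and 3 of 103 libraries were below steer 571. FGB per ALB was 0.206 and 0.315 in the same libraries, with a median of 0.213 in the others. In the library of steer 571 PTPRC, a leukocyte gene, was at 70.1 CPM and POSTN, a matrix protein gene, at 97.5 CPM. These were above the highest unmarked values of 50.5 and 10.8 CPM. The pericyte gene CD248 had no count. Of the adipocyte genes, FABP4 and TRARG1 had no count and CIDEC was at 2.17 CPM. THRSP was at 72.3 CPM, against an unmarked median of 4.25 CPM. The summed level of the 4 adipocyte genes was 74.5 CPM there, against an unmarked median of 14.4 CPM.

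After the wide spread of AHSG to FGB had been seen, the 10 log2 ratios were correlated with the log2 level of ALB within the 6 sets of breed and phase (60 relations, 20000 permutations each). With all libraries 2 of 60 had an adjusted p under 0.1 by Pearson's r, 1 set each for AHSG to FGB and AHSG to FGG (adjusted p = 0.072), and 0 of 60 by Spearman's rho. Pearson's r for AHSG to FGB lay between -0.700 and 0.233 over the 6 sets and was negative in 4 of them. Without the marked libraries 0 of 60 passed by either coefficient.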
